A study of Mus musculus with 9 samples.

Results

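The effect of a nanoenzyme particle on the transcriptome of RAW264.7, a mouse macrophage line, was read from RNA sequencing of 3 libraries labelled P-Mn@mHSA and 3 labelled PBS. These are 6 of the 9 libraries of the series, and all genes that passed a count filter were compared, 12454 of 56748 genes in the deposited table. The remaining 3 libraries, labelled P-Mn/TI@mHSA, received the particle with an added inhibitor of TRAF6 and entered the count filter and the statistical model but no comparison given here. All groups were RAW264.7 cells with no genotype given. The PBS group received buffer and served as the model control, and cells labelled P-Mn@mHSA were given, under the same model condition, nanoparticles that contain nanoenzymes, which are nanomaterials that act like enzymes. The labels name neither that condition, nor the dose and exposure time, nor the parts of the particle's name, apart from the nanoenzyme. A single cell line was used, and the labels give triplicates without stating whether they were separate cultures. A p-value therefore reflects how far these libraries differ from each other, and that spread may be technical only.

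Macrophages detect nucleic acids and microbial products through cytosolic sensors and Toll-like receptors, which lead to NF-kB-driven cytokines and to type I interferon. Interferon acts through its receptors, the kinases Jak1 and Tyk2 and a complex with Stat2 and Irf9 that binds the interferon-stimulated response element of antiviral genes. When oxygen is low or prolyl hydroxylases are inhibited, Hif1a protein is stabilised and binds the hypoxia response element of glycolytic and adaptive genes, a route also used by activated macrophages. Manganese is the cofactor of the mitochondrial superoxide dismutase Sod2 and of several other enzymes.

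Promoters from the interferon and hypoxia lists are shown because most members of each list rose. They belong to the named genes with the largest rises whose window held the list's motif. That each shown window holds a match was therefore fixed by this choice. Each sequence covers 250 bases before to 50 bases after the start of the gene, is credited to RefSeq on build GRCm38.p6 and is written 5′ to 3′ on the strand of the gene. For Rsad2 (chr12:26456403-26456702, minus strand) and Ifit3 (chr19:34583279-34583578, plus strand) the capitals mark matches to GAAANNGAA on either strand, a short form of the interferon-stimulated response element. For Mgarp (chr3:51396498-51396797, minus strand) and Ddit4 (chr10:59951721-59952020, minus strand) they mark matches to ACGTG on either strand, the core of the hypoxia response element.
Rsad2: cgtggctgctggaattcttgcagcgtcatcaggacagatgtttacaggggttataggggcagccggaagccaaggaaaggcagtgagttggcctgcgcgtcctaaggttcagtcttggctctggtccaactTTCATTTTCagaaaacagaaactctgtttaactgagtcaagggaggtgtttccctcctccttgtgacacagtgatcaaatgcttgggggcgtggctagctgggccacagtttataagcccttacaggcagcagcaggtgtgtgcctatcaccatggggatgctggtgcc
Ifit3: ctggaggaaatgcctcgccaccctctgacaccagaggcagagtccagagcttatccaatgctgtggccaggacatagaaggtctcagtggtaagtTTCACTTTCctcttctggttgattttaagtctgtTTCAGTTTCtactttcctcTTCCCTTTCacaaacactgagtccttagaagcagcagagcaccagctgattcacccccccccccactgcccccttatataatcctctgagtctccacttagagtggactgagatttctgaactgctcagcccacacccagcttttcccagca
Mgarp: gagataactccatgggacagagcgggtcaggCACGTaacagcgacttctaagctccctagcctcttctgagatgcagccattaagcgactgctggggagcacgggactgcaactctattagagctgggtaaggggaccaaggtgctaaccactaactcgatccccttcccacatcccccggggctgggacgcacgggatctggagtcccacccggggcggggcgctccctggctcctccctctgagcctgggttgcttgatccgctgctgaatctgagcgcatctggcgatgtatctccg
Ddit4: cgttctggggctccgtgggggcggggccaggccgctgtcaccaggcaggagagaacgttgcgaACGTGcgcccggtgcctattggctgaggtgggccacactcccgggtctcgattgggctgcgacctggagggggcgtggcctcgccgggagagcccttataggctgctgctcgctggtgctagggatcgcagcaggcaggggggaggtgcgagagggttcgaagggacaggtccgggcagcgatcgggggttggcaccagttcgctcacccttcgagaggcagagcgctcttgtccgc
Rsad2 held 1 match, starting 119 bases before the gene start, and Ifit3 held 3, starting 155, 121 and 102 bases before it. Mgarp and Ddit4 held 1 match each, starting 219 and 187 bases before the start. Among 9097 tested genes with a promoter entry, 666 held GAAANNGAA (7.32%). The share was 22 of 42 antiviral effectors (52.38%), 7 of 8 interferon-induced GTPases (87.5%) and 14.23% of the genes that rose at least 2-fold, against 9.39% of those that fell at least 2-fold. ACGTG was present in 26.5% of all these promoters, in 14 of 28 hypoxia targets and in 8 of 17 glycolytic genes (47.06%), against 24.34% of the genes that rose and 24.01% of those that fell at least 2-fold. Hif1a and Car9, hypoxia list genes that fell, held 3 matches and 1 match. The windows of Cmpk2, Oasl2 and Adm held none of their list's motif. A match is a string of letters and was not tested for binding.

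Total counts were 13994570 to 14325144 per library with PBS and 14359477 to 14979087 with P-Mn@mHSA. At least 1 count was found for 17356 to 17737 genes with PBS and for 16685 to 16871 with P-Mn@mHSA. Levels are given as CPM, read counts scaled to a common library size after TMM normalisation. CPM takes no account of transcript length, so levels are compared between groups and, except for Gapdh, not between genes. Libraries of a group correlated at 0.9881 to 0.9915 across genes and libraries of different groups at 0.9605 to 0.9685, a description over genes that are not independent. Of 50 listed markers of other cell types 6 passed the count filter, and the highest summed level in any library was 6.34 CPM, for 5 endothelial markers, against 0.4771 CPM for 6 epithelial markers. The 17 macrophage identity markers summed to 8389 to 8699.5 CPM with PBS and to 7352 to 7881 CPM with P-Mn@mHSA. In bulk RNA a smaller share of cells in a state and a lower level per cell cannot be told apart.

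Nearly as many genes rose as fell. In edgeR's quasi-likelihood test at an adjusted p under 0.05, 6035 of 12454 genes (48.5%) changed, 3028 of them higher with P-Mn@mHSA (24.3% of tested genes) and 3007 lower (24.1%). A change of at least 2-fold was found for 381 higher genes (3.06%) and 706 lower genes (5.67%). The 3 libraries of a group did not overlap with the 3 of the other group for 6803 genes (54.6%), and the median log2 fold change of all genes was −0.00. TMM scaling sets the level taken as no change, so this balance and this median depend on it. Of the changed genes 46.6% were higher with upper-quartile scaling. With limma on log2(TPM + 1) values 36.0% were higher, against 50.2% in the edgeR fit with TMM. The shares of tested genes are the background against which each gene list below is read, since about 1 gene in 4 was called in each direction.

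The direction of change moved with the base composition of the transcript. In the lowest of 5 equal groups of genes by GC content 51.1% were lower and 6.9% higher, with a median log2 fold change of −0.34. In the highest group 11.37% were lower and 39.64% higher, with a median of 0.19. Long genes were also lower more often, with 39.9% lower in the longest of 5 length groups and 12.04% in the shortest. After an offset for GC content, 5514 genes were changed, and 4252 of the 6035 kept their call and direction while 25 were called in the opposite direction. Whether composition affects the measurement or the biology was not tested, and GC-corrected counts are given beside lists whose count or median given here moved by over 1.5 times or turned. Genes that kept their call could change in size. The log2 fold change of Msr1 went from −1.12 to −0.62, of Slc7a11 from −0.80 to −0.44 and of Spi1 from 0.32 to 0.15. Others grew, such as Ifih1 from 0.46 to 0.76.

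**Figure D1:**
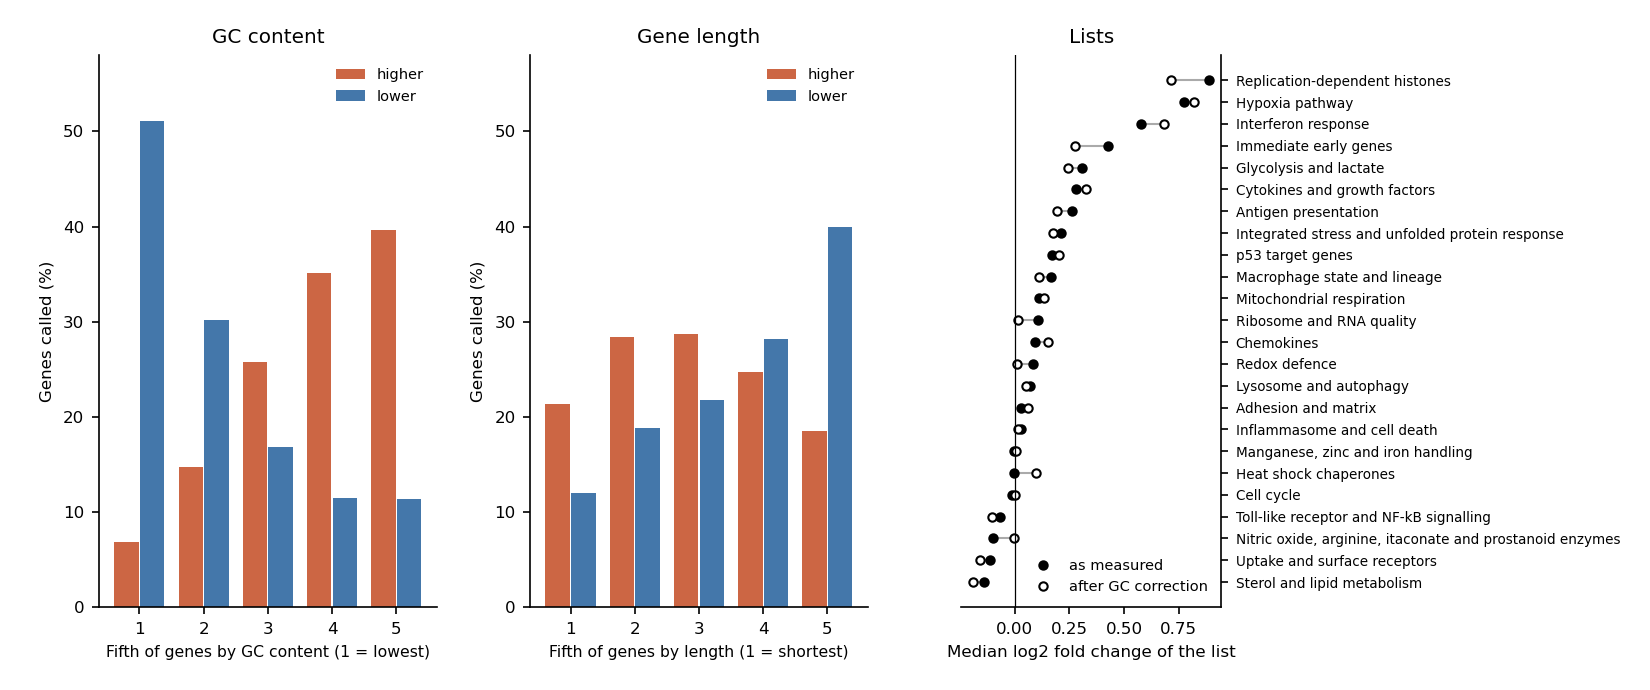
Share of tested genes higher (red) and lower (blue) with P-Mn@mHSA in 5 equal groups by GC content and by gene length, and the median log2 fold change of gene lists as measured and after the GC correction. From the lowest to the highest GC group the share lower drops from 51.1% to 11.37% and the share higher grows from 6.9% to 39.64%.

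Genes were ranked by fold only if called, without overlap between the groups and at a mean of at least 5 CPM in the lower group. The lack of overlap of the genes in this paragraph was thus fixed by the rule, also where they are described again below. Among all tested genes 54.6% showed no overlap. The largest rises were in Rsad2, Gapdh, Cmpk2, Pdcd1, Angptl2, Plk2, Atf3, Ndrg1, Arc, Bcar1, Egr1, Ddit4, Amhr2, Rgs1 and Oasl2. Angptl2, a secreted angiopoietin-like protein, was 25.9, 24.2 and 28.8 CPM in the PBS libraries and 217, 192 and 225 CPM in the P-Mn@mHSA libraries. All P-Mn@mHSA values of Angptl2 lay above the PBS values (log2FC 3.01 ± 0.081 SE, edgeR adjusted p = 5.05e-17), where log2FC is the log2 fold change of P-Mn@mHSA over PBS and SE its standard error. Bcar1, an adaptor of integrin signalling, was 6.33, 7.93 and 6.41 CPM with PBS and 36.6, 37.2 and 42.6 CPM with P-Mn@mHSA, without overlap (log2FC 2.49 ± 0.12 SE, edgeR adjusted p = 7.49e-13). The ± after a mean level is the SD over 3 libraries throughout. Rgs1, a regulator that shortens G protein signals, was 7.91, 7.86 and 6.82 CPM with PBS and 36.6, 37.3 and 35.1 CPM with P-Mn@mHSA, again higher in each particle library (log2FC 2.27 ± 0.12 SE, edgeR adjusted p = 1.29e-12). The largest falls were in Col5a3, Ccl22, Urah, Mmp9, Pdpn, Malat1, Csf3, Cybb, Dync2h1, Fabp5, Akr1b3, Rab15, Cenpe, Knl1 and Adgre1. Col5a3, a chain of type V collagen, was 138, 139 and 137 CPM in the PBS libraries and 9.68, 7.19 and 9.94 CPM in the P-Mn@mHSA libraries. Its groups were far apart (log2FC −3.95 ± 0.11 SE, edgeR adjusted p = 1.61e-16). Pdpn, the surface glycoprotein podoplanin, was 44.6, 34.9 and 47.7 CPM with PBS and 6.57, 8.37 and 7.32 CPM with P-Mn@mHSA, lower in each particle library (log2FC −2.51 ± 0.14 SE, edgeR adjusted p = 7.72e-12). Fabp5, a fatty acid carrier, was 181, 165 and 175 CPM with PBS and 37.2, 44.8 and 34.9 CPM with P-Mn@mHSA, likewise without overlap (log2FC −2.16 ± 0.085 SE, edgeR adjusted p = 1.73e-14).

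**Figure D2:**
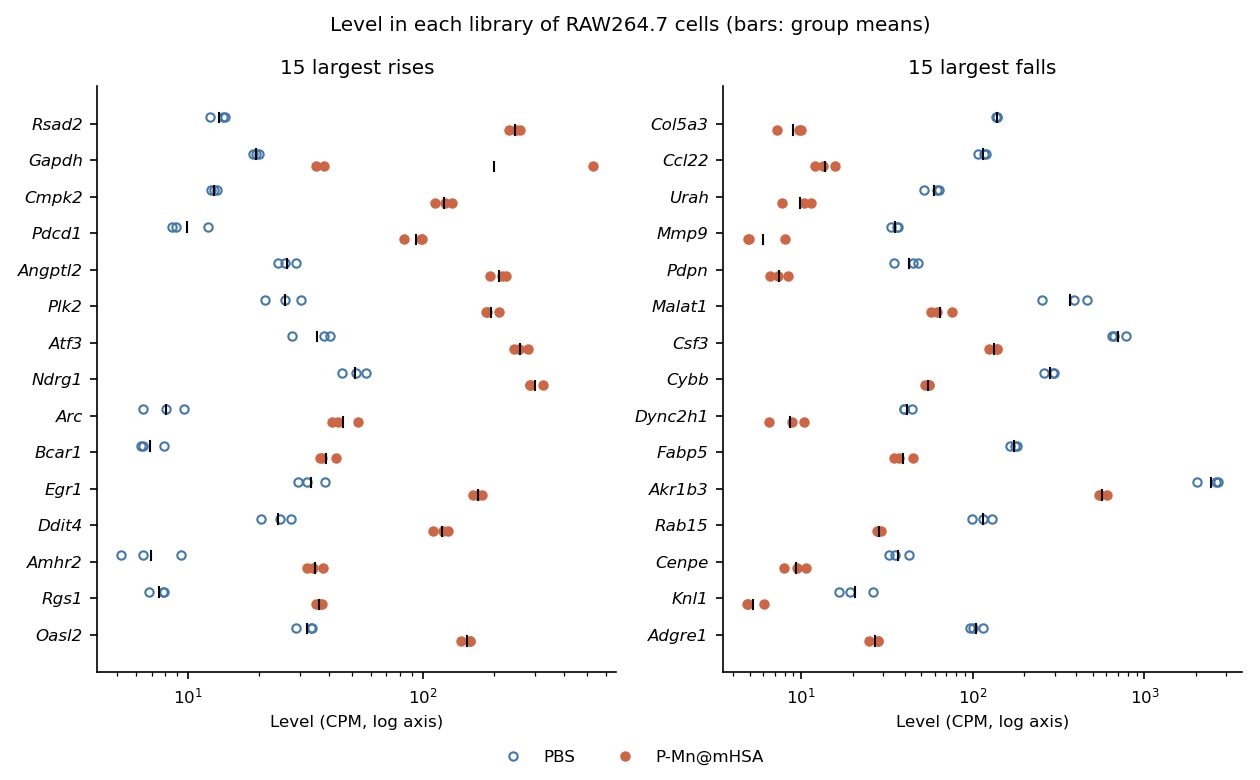
CPM (log axis) of the 15 genes with the largest rise and the 15 with the largest fall by fold, by the rule given in the processing notes; points are libraries of PBS and P-Mn@mHSA and bars are group means. Points of both groups are apart for each gene because the rule took only genes without overlap. For Gapdh 1 P-Mn@mHSA library stands far above the rest of its group.

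Gapdh, a glycolytic enzyme often used as a reference, was 20.1, 18.9 and 19.6 CPM in the PBS libraries and 35, 529 and 38.1 CPM in the P-Mn@mHSA libraries. The mean with P-Mn@mHSA rests on replicate 2, since the other libraries of that group lay at 35.0 and 38.1 CPM. The edgeR call held without replicate 2, where the log2 fold change was 0.91, adjusted p = 4.02e-08. The call was lost with DESeq2 and with limma on log2 FPKM values. Of the 50-base words of Gapdh transcripts, 27.8% also occur in transcripts of other genes, and the sources used here do not say how the authors treated reads with several matches. The mean of Gapdh with PBS was 19.5 CPM, low beside 2516 CPM for Ldha and 2837 CPM for Eno1, other glycolytic enzymes. Their gene lengths were 4133, 3310 and 5379 bases. Why so few reads were counted for Gapdh was not tested.

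The interferon response list, which holds receptors, signal factors, sensors and feedback genes beside antiviral effectors and GTPases, was among those with the largest shift. Of 100 tested members, 68 were higher and 12 lower, while 20 did not pass the threshold, with a median log2 fold change of 0.58 against −0.00 for all genes. After the GC correction 68 were higher and 11 lower. None of the 5 tested receptor subunits changed, and Ifnb1, the gene of interferon beta, had at most 9 counts in a library and was not tested. Ifnar1, a subunit of the type I interferon receptor, was 62.9, 79.1 and 76.2 CPM with PBS and 67.2, 68.7 and 74.3 CPM with P-Mn@mHSA, and the groups overlapped (log2FC −0.05 ± 0.082 SE, edgeR adjusted p = 0.613).

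Among the signal and transcription factors 9 of 12 rose and 2 fell. Stat2 was 52.3, 54.9 and 48.8 CPM in the PBS libraries and 98.3, 91.5 and 100.3 CPM in the P-Mn@mHSA libraries. Its 3 particle libraries all lay above the PBS libraries (log2FC 0.90 ± 0.081 SE, edgeR adjusted p = 9.91e-09). Irf9, a DNA-binding partner of Stat2, was 58.2, 57.3 and 65 CPM with PBS and 105, 101 and 105 CPM with P-Mn@mHSA, without overlap (log2FC 0.79 ± 0.073 SE, edgeR adjusted p = 1.7e-08). Irf1, a factor induced by interferon, rose from a mean of 10.4 ± 1.27 to 21.5 ± 1.26 CPM and Irf7, which amplifies interferon production, from 693 ± 36.6 to 948 ± 29.2 CPM. In contrast the receptor kinase Jak2 was 38.4, 44.5 and 38.2 CPM with PBS and 21.1, 24.6 and 21.7 CPM with P-Mn@mHSA, lower in each particle library (log2FC −0.85 ± 0.1 SE, edgeR adjusted p = 4.99e-07), and Jak1 fell from 149.5 ± 6.57 to 129 ± 0.403 CPM.

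Of 15 tested nucleic acid sensors 8 rose and 5 fell. Zbp1, a sensor of left-handed nucleic acids, was 76.1, 66.4 and 68.1 CPM in the PBS libraries and 172, 182 and 167 CPM in the P-Mn@mHSA libraries. Both groups were separate (log2FC 1.31 ± 0.072 SE, edgeR adjusted p = 4.47e-12). Dhx58, a regulator of the RNA sensors, rose from a mean of 76.7 ± 2.27 to 167 ± 3.82 CPM. Ddx58, the RNA sensor RIG-I, rose from 204 ± 9.23 to 333 ± 16.1 CPM, and Ifih1, the sensor MDA5, from 52.9 ± 3.67 to 72.6 ± 4.58 CPM. Aim2, a DNA sensor of the inflammasome, was 46.5, 52.6 and 44.8 CPM with PBS and 29.2, 31.8 and 26.8 CPM with P-Mn@mHSA and fell (log2FC −0.71 ± 0.095 SE, edgeR adjusted p = 2.52e-06). Cgas, the DNA sensor that makes cyclic GMP-AMP, was 34.9, 35.3 and 35.7 CPM with PBS and 29.2, 31.3 and 29.3 CPM with P-Mn@mHSA (log2FC −0.24 ± 0.084 SE, edgeR adjusted p = 0.0236), a call lost in 8 of 24 alternatives, the GC correction among them (−0.11, adjusted p = 0.265). Sting1, the adaptor downstream of Cgas, rose from 43.5 ± 2.21 to 60.7 ± 4.55 CPM, while the kinase Tbk1 fell from 70.0 ± 4.34 to 54 ± 5.56 CPM and Ikbke, a related kinase, from 98.1 ± 0.888 to 56.3 ± 5.51 CPM.

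The antiviral effectors had 41 of 53 members higher and 4 lower, with a median log2 fold change of 0.75, and 20 of them rose at least 2-fold. Rsad2, the antiviral enzyme viperin, was 12.4, 14.1 and 14.4 CPM in the PBS libraries and 233, 249 and 258 CPM in the P-Mn@mHSA libraries (log2FC 4.18 ± 0.099 SE, edgeR adjusted p = 6.36e-18). Its neighbour Cmpk2, a mitochondrial nucleotide kinase, was 13.3, 12.6 and 12.9 CPM with PBS and 112, 125 and 133 CPM with P-Mn@mHSA. Oasl2, of the oligoadenylate synthetase-like family, was 33.5, 29 and 33.9 CPM with PBS and 159, 146 and 159 CPM with P-Mn@mHSA (log2FC 2.27 ± 0.087 SE, edgeR adjusted p = 1.03e-14). Each of these 3 genes was above PBS in all particle libraries, which the ranking rule had fixed. Ifit3, an RNA-binding restriction factor, rose from 10.1 ± 1.2 to 43.6 ± 2.56 CPM, with 51.2% of its 50-base words shared. Slfn4, a member of the Schlafen family, was 292, 282 and 231 CPM with PBS and 152, 146 and 147 CPM with P-Mn@mHSA and fell (log2FC −0.85 ± 0.093 SE, edgeR adjusted p = 1.57e-07).

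All 8 called GTPases among 9 tested rose, with a median log2 fold change of 1.39. Irgm1, an immunity-related GTPase that acts at membranes of pathogen vacuoles, was 56.9, 58.8 and 49.4 CPM in the PBS libraries and 174, 176 and 169.7 CPM in the P-Mn@mHSA libraries (log2FC 1.66 ± 0.076 SE, edgeR adjusted p = 2.04e-13). Igtp rose from a mean of 17 ± 1.18 to 51.2 ± 1.72 CPM and Ifi47 from 5.61 ± 1.16 to 15.3 ± 1.86 CPM. Among 6 feedback genes, Usp18, the protease that removes Isg15 and restrains the receptor, was 134, 121 and 131 CPM with PBS and 339, 337 and 328 CPM with P-Mn@mHSA (log2FC 1.38 ± 0.064 SE, edgeR adjusted p = 2.48e-13). Socs3, which limits cytokine receptor signalling and is best known for interleukin 6 signals, was 491, 467 and 562 CPM with PBS and 209, 207 and 214 CPM with P-Mn@mHSA and fell (log2FC −1.27 ± 0.066 SE, edgeR adjusted p = 1.66e-12). Usp18 and Socs3 thus moved in opposite directions, each without overlap between the groups.

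**Figure D3:**
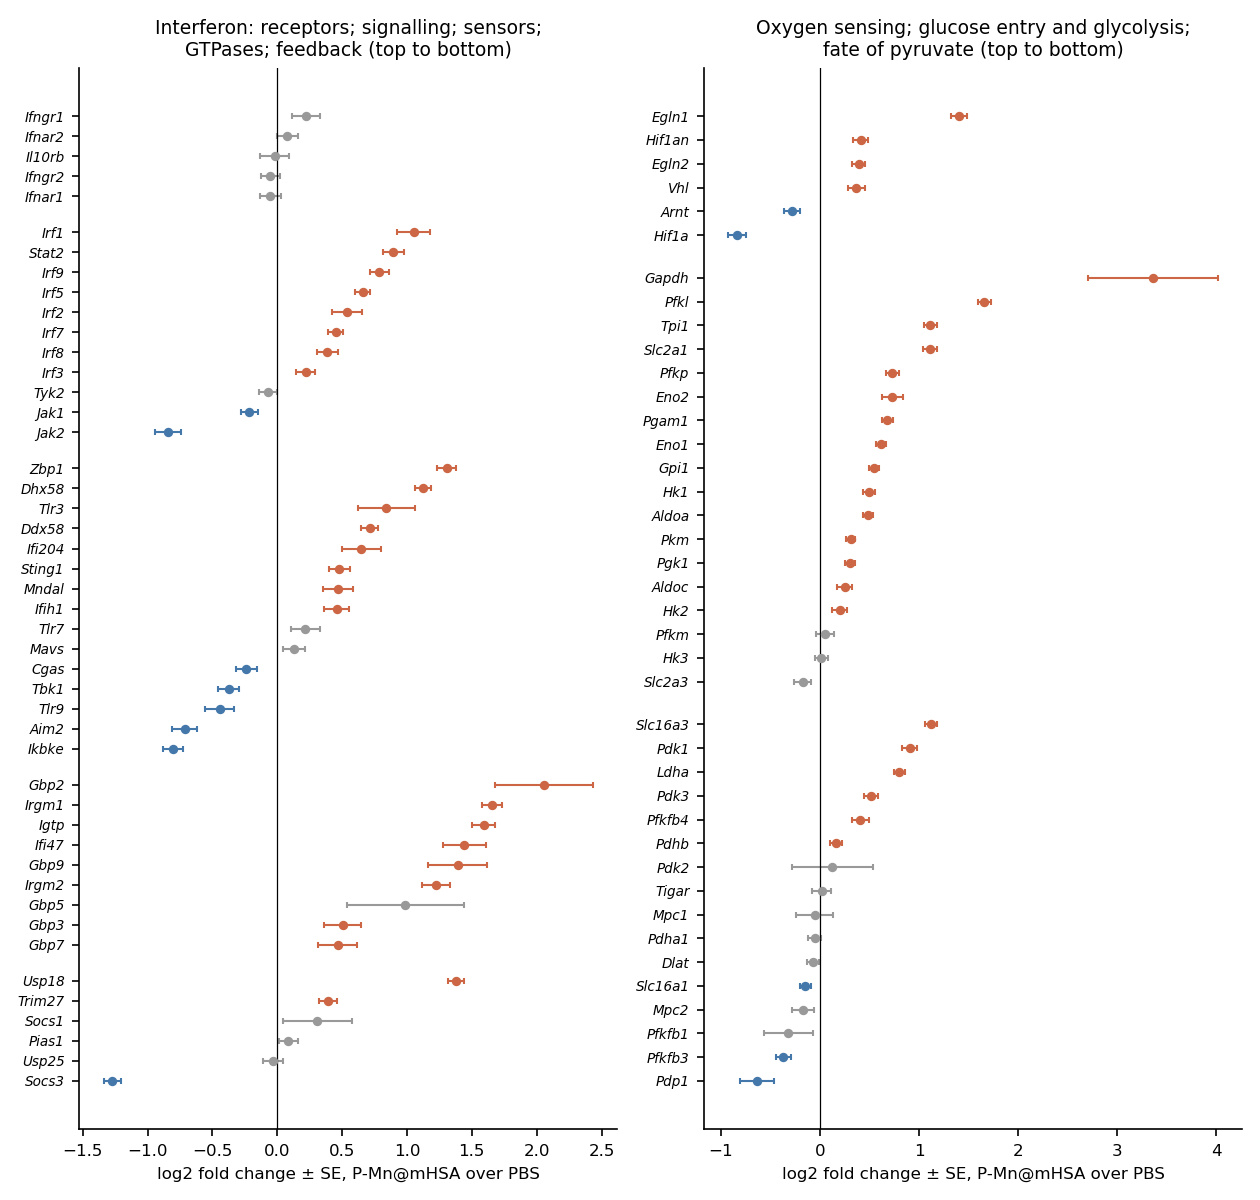
Log2 fold change (P-Mn@mHSA over PBS, bars are SE) of interferon pathway genes by role (left) and of oxygen sensing, glycolysis and pyruvate genes (right); red is higher, blue lower and grey not past the threshold, with 11 of the 12 signal and transcription factors drawn. Receptor subunits are grey, 8 of 9 GTPases are red, and Hif1a lies to the left while Egln1 lies to the right.

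Genes that supply peptides to MHC class I rose in 9 of 12 tested cases and fell in none, with a median log2 fold change of 0.47. The immunoproteasome subunit Psmb10 was 42.3, 42 and 43.6 CPM with PBS and 92.9, 86.8 and 93.5 CPM with P-Mn@mHSA (log2FC 1.10 ± 0.073 SE, edgeR adjusted p = 8.35e-11). Its values did not overlap. Tap1, part of the peptide transporter, was 115, 104 and 115 CPM with PBS and 207, 189 and 203 CPM with P-Mn@mHSA (log2FC 0.84 ± 0.066 SE, edgeR adjusted p = 1.16e-09). The class I chains and their regulators themselves rose in 4 of 10 cases and fell in none, with a median of 0.14. This count depended on composition, since after the GC correction 1 of 10 were higher and 3 lower (median 0.03). H2-D1, a classical class I heavy chain, was 682, 692 and 708 CPM with PBS and 666, 637 and 712 CPM with P-Mn@mHSA, and the groups overlapped (log2FC −0.05 ± 0.058 SE, edgeR adjusted p = 0.525), while the GC correction called it lower (−0.24, adjusted p = 0.000712).

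Hypoxia-pathway genes rose in 30 of 40 tested cases and fell in 6, with a median log2 fold change of 0.78. Adm, the vasodilator peptide adrenomedullin, was 2.06, 0.888 and 1.22 CPM in the PBS libraries and 23.2, 27.9 and 27.1 CPM in the P-Mn@mHSA libraries (log2FC 4.22 ± 0.19 SE, edgeR adjusted p = 1.39e-13). Mgarp, a mitochondrial protein, was 0.55, 0.273 and 0.878 CPM with PBS and 7.11, 6.14 and 5.68 CPM with P-Mn@mHSA (log2FC 3.45 ± 0.3 SE, edgeR adjusted p = 5.32e-09). Ndrg1, a stress-responsive gene, was 45.2, 52.1 and 57.4 CPM with PBS and 285, 286 and 326 CPM with P-Mn@mHSA (log2FC 2.54 ± 0.085 SE, edgeR adjusted p = 1.17e-15). Ddit4, an inhibitor of mTORC1, rose from a mean of 24.2 ± 3.44 to 121 ± 8.92 CPM, and Bnip3, a receptor for the removal of mitochondria, from 25.3 ± 3.58 to 119 ± 1.75 CPM (62.5% shared 50-base words). No particle library of these genes overlapped with PBS. Among targets, Car9, a carbonic anhydrase, was 7.15, 5.06 and 5.06 CPM with PBS and 3.18, 2.93 and 3.48 CPM with P-Mn@mHSA and fell (log2FC −0.85 ± 0.21 SE, edgeR adjusted p = 0.00237). Vegfa, the vascular growth factor, was 98.6, 92.6 and 91.1 CPM with PBS and 105, 94.5 and 117 CPM with P-Mn@mHSA, with overlapping groups (log2FC 0.17 ± 0.077 SE, edgeR adjusted p = 0.0815). It was called higher without P-Mn@mHSA replicate 2 (0.24, adjusted p = 0.0079).

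The oxygen-sensing genes moved apart. Egln1, the prolyl hydroxylase that marks Hif1a for degradation, was 26.9, 29.4 and 32.7 CPM in the PBS libraries and 77.6, 78.3 and 79.6 CPM in the P-Mn@mHSA libraries (log2FC 1.40 ± 0.079 SE, edgeR adjusted p = 5.08e-12). Hif1a was 118, 130.2 and 112 CPM in the PBS libraries and 62, 77.3 and 62.7 CPM in the P-Mn@mHSA libraries (log2FC −0.83 ± 0.091 SE, edgeR adjusted p = 1.56e-07). Egln1 was thus higher and Hif1a mRNA lower in every particle library. With the GC correction the log2 fold change was 1.22 for Egln1 and −0.47 for Hif1a. Vhl, the ubiquitin ligase subunit, rose from 31 ± 1.47 to 40.0 ± 2.16 CPM, and Arnt, the partner of Hif1a, fell from 94 ± 6.6 to 77.3 ± 6.33 CPM. RNA gives no measure of Hif1a protein.

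Glycolytic enzymes and glucose transporters rose in 15 of 18 cases and fell in none, with a median log2 fold change of 0.52 (0.31 over the whole glycolysis and lactate list, 21 of 34 higher and 3 lower). With the GC correction 13 of 18 were higher and 1 lower (median 0.38). Pfkl, a phosphofructokinase, was 218, 212 and 240.4 CPM with PBS and 681, 689 and 753 CPM with P-Mn@mHSA (log2FC 1.66 ± 0.064 SE, edgeR adjusted p = 1.2e-14). Tpi1, triose phosphate isomerase, was 812, 732 and 809 CPM with PBS and 1643, 1844 and 1611 CPM with P-Mn@mHSA (log2FC 1.12 ± 0.062 SE, edgeR adjusted p = 5.03e-12). Slc2a1, the glucose transporter GLUT1, was 352, 373 and 398 CPM with PBS and 795, 763 and 869.7 CPM with P-Mn@mHSA (log2FC 1.11 ± 0.07 SE, edgeR adjusted p = 3.2e-11). For all of these the particle libraries lay above PBS. Eno1, the enolase, rose from 2837 ± 70.1 to 4353 ± 70.4 CPM, though 72.2% of its 50-base words occur in other genes. Ldha, lactate dehydrogenase, was 2622, 2391 and 2535 CPM with PBS and 4279, 4679 and 4202 CPM with P-Mn@mHSA (log2FC 0.80 ± 0.057 SE, edgeR adjusted p = 2.72e-10), and Slc16a3, the lactate exporter, was 451, 433 and 482 CPM with PBS and 979.7, 968 and 1027 CPM with P-Mn@mHSA (log2FC 1.12 ± 0.06 SE, edgeR adjusted p = 2.23e-12). Pdk1, which inhibits pyruvate dehydrogenase, rose from 41.4 ± 1.96 to 77.6 ± 3.94 CPM. Pfkfb3, a regulator of phosphofructokinase, was 69.8, 78 and 79.3 CPM with PBS and 59.7, 54.9 and 60.9 CPM with P-Mn@mHSA and fell (log2FC −0.37 ± 0.075 SE, edgeR adjusted p = 0.000317).

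Redox genes split by role. Of 64 tested, 28 rose and 16 fell, with a median log2 fold change of 0.09. After the GC correction 21 of 64 were higher and 18 lower (median 0.01). In the NRF2 control group 6 of 8 rose, among them Sqstm1, an autophagy receptor, 1085, 1079 and 1229.9 CPM with PBS and 2501, 2677 and 2749 CPM with P-Mn@mHSA (log2FC 1.22 ± 0.069 SE, edgeR adjusted p = 5.44e-12), with 20.4% of its 50-base words shared, and Maff, a partner of NRF2, 13, 11.5 and 10.5 CPM with PBS and 21.1, 23.7 and 23.7 CPM with P-Mn@mHSA (log2FC 0.97 ± 0.12 SE, edgeR adjusted p = 8.75e-07). Nfe2l2, which encodes NRF2, rose from 68.7 ± 2.09 to 88.7 ± 1.95 CPM. Gclc, the catalytic subunit of glutathione synthesis, rose from 51.1 ± 1.38 to 78.6 ± 4.95 CPM, and Chac1, which degrades glutathione, from 38.2 ± 2.72 to 92.9 ± 6.72 CPM. Among the transferases, Mgst2 fell from 28.2 ± 3.48 to 11.4 ± 1.91 CPM and Gstt1 from 18.9 ± 1.99 to 5.77 ± 1.32 CPM, and Slc7a11, the cystine importer, was 156, 151 and 152 CPM with PBS and 83.7, 91.6 and 88.9 CPM with P-Mn@mHSA and fell (log2FC −0.80 ± 0.073 SE, edgeR adjusted p = 1.41e-08).

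Of 19 superoxide and peroxide genes 12 rose and 2 fell. Sod2, the manganese superoxide dismutase, was 274, 255 and 294 CPM in the PBS libraries and 146, 146 and 134 CPM in the P-Mn@mHSA libraries (log2FC −0.95 ± 0.065 SE, edgeR adjusted p = 1.28e-10). Each particle library was below PBS. Sod1, the copper-zinc enzyme, rose from 323 ± 23.5 to 395 ± 25.2 CPM, and Gpx1, a glutathione peroxidase, from 25.9 ± 1.22 to 48.1 ± 3.56 CPM. Cybb, the catalytic subunit of the phagocyte NADPH oxidase, was 259, 297 and 294 CPM in the PBS libraries and 53, 55.2 and 55.5 CPM in the P-Mn@mHSA libraries (log2FC −2.38 ± 0.076 SE, edgeR adjusted p = 5.65e-16). It fell while its partner Cyba was 469, 391 and 428 CPM with PBS and 402, 439 and 397 CPM with P-Mn@mHSA, with overlapping groups and no call (log2FC −0.06 ± 0.068 SE, edgeR adjusted p = 0.513), although the GC correction called it lower (−0.22, adjusted p = 0.0108). Akr1b3, aldose reductase, was 2613, 2698 and 2021 CPM with PBS and 553, 607 and 542 CPM with P-Mn@mHSA and fell (log2FC −2.11 ± 0.09 SE, edgeR adjusted p = 6.14e-14).

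Genes for metal handling had 10 of 44 tested members higher and 14 lower, against 24.3% higher and 24.1% lower among all tested genes. Slc11a1, a phagosomal transporter of manganese and iron, was 230.2, 248 and 241 CPM in the PBS libraries and 141, 146 and 143 CPM in the P-Mn@mHSA libraries (log2FC −0.74 ± 0.058 SE, edgeR adjusted p = 1.32e-09). Slc11a2, a related importer, fell from 125 ± 12 to 88.6 ± 5.83 CPM, and Slc39a14, which imports manganese and zinc, rose from 114 ± 7.8 to 153 ± 17.2 CPM. Mt1, a metallothionein, was 110.4, 93.7 and 112 CPM with PBS and 172, 162 and 146 CPM with P-Mn@mHSA and rose (log2FC 0.60 ± 0.075 SE, edgeR adjusted p = 1.02e-06). Fth1, the heavy chain of ferritin, fell from a mean of 10137 ± 474 to 7237 ± 504 CPM, Slc25a37, the mitochondrial iron importer, from 114 ± 3.31 to 68.8 ± 3.1 CPM, and Lcn2, an iron-binding siderophore carrier, from 258 ± 25.7 to 104 ± 2.85 CPM. Hmox1, haem oxygenase, was 415, 411 and 458 CPM with PBS and 733, 725 and 785 CPM with P-Mn@mHSA and rose (log2FC 0.81 ± 0.062 SE, edgeR adjusted p = 8.22e-10). Tfrc, the transferrin receptor, fell from 237 ± 14.5 to 171 ± 22.4 CPM, a call that was lost in the GC correction (−0.11, adjusted p = 0.176).

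Cytokines and growth factors moved in both directions, with 18 of 38 higher, 10 lower and 11 higher by at least 2-fold. Lif, a cytokine of the interleukin 6 family, was 81.3, 91.1 and 98.7 CPM in the PBS libraries and 386, 388 and 436 CPM in the P-Mn@mHSA libraries (log2FC 2.16 ± 0.086 SE, edgeR adjusted p = 1.99e-14). Pdgfb, a platelet-derived growth factor, was 128, 132 and 152 CPM with PBS and 368, 371 and 443 CPM with P-Mn@mHSA (log2FC 1.52 ± 0.08 SE, edgeR adjusted p = 1.86e-12). Csf1, the macrophage growth factor, rose from 6.59 ± 0.453 to 17.8 ± 2.36 CPM, and Il33, an alarmin, from 2.14 ± 0.236 to 39.6 ± 4.08 CPM. Tnf was 823, 788 and 915 CPM with PBS and 1024, 1009 and 1149.8 CPM with P-Mn@mHSA and rose (log2FC 0.33 ± 0.07 SE, edgeR adjusted p = 0.000496). Of the genes that fell, Csf3, the granulocyte growth factor, was 667, 646 and 785 CPM in the PBS libraries and 124, 138 and 139 CPM in the P-Mn@mHSA libraries (log2FC −2.39 ± 0.078 SE, edgeR adjusted p = 9.07e-16), and Spp1, the matrix protein osteopontin, was 5902, 6212 and 6092 CPM with PBS and 2613, 2881 and 2566 CPM with P-Mn@mHSA (log2FC −1.18 ± 0.059 SE, edgeR adjusted p = 8.72e-13). The groups of both were apart. Il1b was 38.2, 34.7 and 40.1 CPM with PBS and 11, 14.2 and 11.6 CPM with P-Mn@mHSA and fell (log2FC −1.62 ± 0.12 SE, edgeR adjusted p = 5.69e-10). Il6 was 10.2, 9.09 and 12 CPM with PBS and 9.27, 14.1 and 11.1 CPM with P-Mn@mHSA, with overlapping groups and no call (log2FC 0.14 ± 0.18 SE, edgeR adjusted p = 0.545), but it rose after the GC correction (0.63, adjusted p = 0.00516).

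Chemokine genes also split, with 8 of 23 tested higher and 9 lower. Ccl5, an attractant of T cells and monocytes, was 107, 92 and 109.6 CPM in the PBS libraries and 407, 411 and 403 CPM in the P-Mn@mHSA libraries (log2FC 1.98 ± 0.067 SE, edgeR adjusted p = 1.32e-15). Cxcl10, an interferon-induced attractant, rose from a mean of 11.7 ± 1.37 to 33.7 ± 1.15 CPM, and Ccl3 from 842 ± 67 to 1268 ± 108 CPM. Ccl22, which attracts regulatory T cells, was 117, 107 and 119 CPM in the PBS libraries and 13.3, 15.8 and 12.1 CPM in the P-Mn@mHSA libraries (log2FC −3.05 ± 0.095 SE, edgeR adjusted p = 5.53e-16). Ccl2, the monocyte attractant, was 80.1, 65.9 and 92.9 CPM with PBS and 31.2, 43.9 and 34.4 CPM with P-Mn@mHSA and fell (log2FC −1.13 ± 0.12 SE, edgeR adjusted p = 2.04e-07). None of the named chemokines overlapped between the groups. Among the receptors Ccrl2 rose from 12.5 ± 1.36 to 48 ± 2.63 CPM and Ccr7, the lymph node homing receptor, fell from 4.73 ± 0.503 to 0.205 ± 0.203 CPM. In the P-Mn@mHSA libraries 3 counts equalled 0.203 to 0.213 CPM, so the size of the fall of Ccr7 is uncertain.

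Nos2, the inducible nitric oxide synthase, was 356, 378 and 379 CPM with PBS and 150.2, 156 and 176 CPM with P-Mn@mHSA and fell (log2FC −1.21 ± 0.071 SE, edgeR adjusted p = 1.14e-11). Acod1, the enzyme that makes itaconate, was 1497, 1462 and 1795 CPM with PBS and 733, 766 and 794 CPM with P-Mn@mHSA and fell (log2FC −1.05 ± 0.081 SE, edgeR adjusted p = 9e-10). Ptgs2, cyclooxygenase 2, rose from a mean of 868 ± 50.9 to 1271 ± 62 CPM, while Ptges, which makes prostaglandin E2 downstream of it, fell from 26.7 ± 0.392 to 7.53 ± 1.74 CPM.

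**Figure D4:**
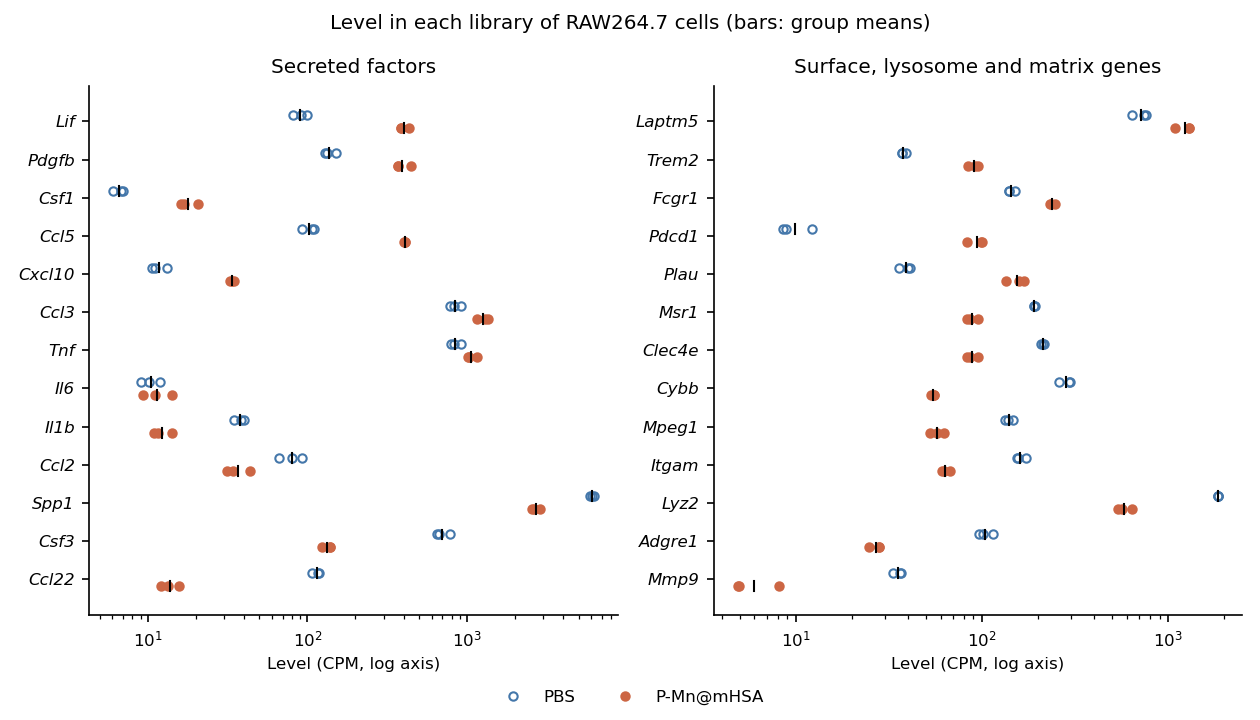
CPM (log axis) of secreted factors (left) and of surface and macrophage genes (right), points are libraries and bars group means. Lif, Pdgfb, Ccl5 and Pdcd1 lie higher with P-Mn@mHSA and Csf3, Ccl22, Mmp9, Cybb and Adgre1 lower, while the Il6 points overlap.

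Toll-like receptor and NF-kB signalling had 15 of 69 tested members higher and 26 lower, with a median log2 fold change of −0.07. Under the GC correction 16 of 69 were higher and 26 lower (median −0.10). The endotoxin receptor Tlr4 was 27, 29.9 and 26.3 CPM in the PBS libraries and 14, 18.4 and 14.6 CPM in the P-Mn@mHSA libraries (log2FC −0.82 ± 0.13 SE, edgeR adjusted p = 2.77e-05), and its co-receptor Cd14 was 1379, 1332 and 1525 CPM with PBS and 988, 1022 and 1041 CPM with P-Mn@mHSA (log2FC −0.47 ± 0.058 SE, edgeR adjusted p = 9.13e-07). Both were lower in every particle library. The GC correction gave a log2 fold change of −0.33 for Tlr4 and −0.58 for Cd14. Traf6, the target of the inhibitor used in the third group, was 39.7, 42.8 and 42.4 CPM with PBS and 42.5, 45.5 and 48.5 CPM with P-Mn@mHSA, with overlapping groups and no call (log2FC 0.13 ± 0.084 SE, edgeR adjusted p = 0.217). It was called higher after the GC correction (0.26, adjusted p = 0.0184). Irak3, a brake on the receptor kinases, was 50.7, 54.3 and 67.9 CPM with PBS and 17.5, 18.6 and 20.5 CPM with P-Mn@mHSA and fell (log2FC −1.61 ± 0.11 SE, edgeR adjusted p = 1.94e-10). Ripk3, a kinase of necroptosis, rose from 90.4 ± 6.67 to 141 ± 10.4 CPM.

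The group of NF-kB subunits and inhibitors, in which Cflar and Birc2 were also placed, fell in 13 of 24 cases and rose in 3. Rela, the main transactivating subunit, was 76.1, 80.3 and 77.5 CPM with PBS and 129.8, 118 and 129.8 CPM with P-Mn@mHSA and rose (log2FC 0.69 ± 0.065 SE, edgeR adjusted p = 1.92e-08), and Rel fell from a mean of 92.3 ± 7.68 to 53.1 ± 2.38 CPM. Cflar, an inhibitor of caspase 8, was 192, 216 and 193 CPM with PBS and 89.5, 98.5 and 99.9 CPM with P-Mn@mHSA and fell (log2FC −1.06 ± 0.078 SE, edgeR adjusted p = 4.03e-10). Birc2, a ubiquitin ligase of TNF receptor signalling, fell from 29.1 ± 2.12 to 16.7 ± 1.71 CPM, and Nfkbiz, a nuclear cofactor, rose from 156 ± 8.06 to 228 ± 14.7 CPM. The group thus held members moving both ways but more often lower, beside 24.1% lower and 24.3% higher among all tested genes. After the GC correction 14 of 24 were lower and 3 higher.

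Immediate early genes rose in 27 of 44 tested cases and fell in 7. Among 13 AP-1 and ATF genes 10 rose and 1 fell, with a median log2 fold change of 1.03. With the GC correction 9 of 13 were higher and 2 lower (median 0.81). Atf3, a stress-induced factor, was 38, 27.7 and 40.3 CPM in the PBS libraries and 244, 257 and 280.0 CPM in the P-Mn@mHSA libraries (log2FC 2.88 ± 0.11 SE, edgeR adjusted p = 6.13e-15). Fosb, an AP-1 subunit, was 1.58, 2.66 and 1.96 CPM with PBS and 13.7, 12.4 and 17.1 CPM with P-Mn@mHSA (log2FC 2.79 ± 0.19 SE, edgeR adjusted p = 1.06e-10), and Junb rose from 384 ± 31.6 to 784 ± 22.6 CPM. The groups were apart for each. Batf, which acts in lymphocyte and myeloid differentiation, was 3.64, 2.46 and 3.31 CPM with PBS and 0.135, 0.209 and 0.355 CPM with P-Mn@mHSA and fell (log2FC −3.71 ± 0.48 SE, edgeR adjusted p = 1.74e-06). Arc, best known as an activity-regulated gene of neurons, was 6.46, 9.63 and 8.1 CPM with PBS and 40.9, 43.3 and 53.1 CPM with P-Mn@mHSA (log2FC 2.50 ± 0.13 SE, edgeR adjusted p = 9.21e-13). Egr1 rose from a mean of 33.4 ± 4.47 to 171 ± 7.7 CPM and Dusp1, a phosphatase of MAP kinases, from 18.6 ± 2.42 to 56.1 ± 4.84 CPM. Zfp36, which destabilises cytokine mRNAs, was 299, 297 and 338 CPM with PBS and 234, 227 and 251 CPM with P-Mn@mHSA and fell (log2FC −0.39 ± 0.065 SE, edgeR adjusted p = 4.03e-05).

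The integrated stress and unfolded protein response had 40 of 75 tested members higher and 8 lower, with a median log2 fold change of 0.21. Ppp1r15a, which restores translation by removing the phosphate from eIF2 alpha, was 36.9, 36.3 and 44 CPM in the PBS libraries and 167, 158 and 189 CPM in the P-Mn@mHSA libraries (log2FC 2.13 ± 0.09 SE, edgeR adjusted p = 4.57e-14). Trib3, a pseudokinase induced by ATF4, was 53.8, 57.1 and 63.1 CPM with PBS and 132, 138 and 145 CPM with P-Mn@mHSA (log2FC 1.25 ± 0.075 SE, edgeR adjusted p = 1.41e-11). Atf4 itself rose from a mean of 416 ± 13.8 to 583 ± 21.6 CPM, while Ddit3, the factor CHOP, was 30.7, 31.8 and 34.3 CPM with PBS and 25.2, 31.7 and 28.1 CPM with P-Mn@mHSA, with overlapping groups (log2FC −0.19 ± 0.1 SE, edgeR adjusted p = 0.135). It was called lower in 4 of 24 alternatives, among them the length correction and leaving out P-Mn@mHSA replicate 2 (−0.28, adjusted p = 0.0409). In the promoters of the ATF4 branch 6 of 27 held TGATGNAA on either strand (22.22%), against 2.31% of all. Of 20 aminoacyl-tRNA synthetases 10 rose and 4 fell. Of the ER chaperones, Dnajb9 was 17.8, 12.5 and 12.2 CPM with PBS and 34.5, 35.7 and 34.3 CPM with P-Mn@mHSA and rose (log2FC 1.299 ± 0.13 SE, edgeR adjusted p = 3.01e-08), and Hspa5, the chaperone BiP, rose from 1319 ± 15.2 to 1831 ± 25.5 CPM. Heat shock chaperones moved both ways, with 6 of 17 higher and 7 lower, and Hspa4l, of the Hsp110 family, was 209, 227 and 176 CPM with PBS and 62.5, 72.4 and 60.6 CPM with P-Mn@mHSA and fell (log2FC −1.65 ± 0.087 SE, edgeR adjusted p = 2.04e-12).

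Among 39 tested p53 target genes 18 rose and 8 fell, with 9 rising at least 2-fold. Plk2, a polo-like kinase, was 25.9, 21.4 and 30.4 CPM in the PBS libraries and 187, 186 and 212 CPM in the P-Mn@mHSA libraries (log2FC 2.91 ± 0.11 SE, edgeR adjusted p = 5.12e-15). Cdkn1a, the cell cycle inhibitor p21, was 283, 302 and 319.6 CPM with PBS and 896, 865 and 993 CPM with P-Mn@mHSA (log2FC 1.61 ± 0.069 SE, edgeR adjusted p = 6.6e-14). Both groups were apart for each. Trp53, which encodes p53, rose from a mean of 231 ± 10.9 to 323 ± 5.94 CPM. Fas, a death receptor, was 5.71, 5.06 and 6.89 CPM with PBS and 0.88, 0.768 and 0.71 CPM with P-Mn@mHSA and fell (log2FC −2.89 ± 0.31 SE, edgeR adjusted p = 1.45e-07), and Mdm4, an inhibitor of p53, fell from 73.6 ± 8.83 to 31.7 ± 0.281 CPM. Of 28 caspases and BCL2 family members 7 rose and 6 fell, close to the shares of all tested genes (24.3% higher and 24.1% lower). Bak1 rose from 162 ± 4.2 to 249 ± 6.89 CPM and Mcl1, which opposes it, from 376 ± 11.7 to 577 ± 22.7 CPM. Of 15 inflammasome genes 5 rose and 7 fell, and with the GC correction 4 of 15 were higher and 4 lower (median −0.12). Casp1, the inflammatory caspase, was 33.1, 30.0 and 31.3 CPM with PBS and 18.6, 26.5 and 16.4 CPM with P-Mn@mHSA (log2FC −0.62 ± 0.15 SE, edgeR adjusted p = 0.0015), a call that was lost in the GC correction (−0.27, adjusted p = 0.0998).

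Cell cycle genes divided by phase. Of 57 G1/S and replication genes 27 rose and 4 fell, with a median log2 fold change of 0.20, while of 69 G2/M and mitosis genes 13 rose and 38 fell, with a median of −0.25. After the GC correction 22 of 57 were higher and 2 lower (median 0.12) in the first group, while 8 of 69 were higher and 31 lower (median −0.17) in the second. Ccnd1, cyclin D1, rose from a mean of 352 ± 21.8 to 643 ± 30.1 CPM (27.2% shared 50-base words), and Mcm5, a subunit of the replicative helicase, was 313, 300.0 and 315 CPM with PBS and 444, 457 and 457 CPM with P-Mn@mHSA (log2FC 0.55 ± 0.056 SE, edgeR adjusted p = 6.39e-08). Cenpe, a kinetochore motor, was 35.3, 42.5 and 32.3 CPM in the PBS libraries and 7.99, 10.6 and 9.45 CPM in the P-Mn@mHSA libraries (log2FC −1.97 ± 0.15 SE, edgeR adjusted p = 4.38e-10). Knl1, a kinetochore scaffold, was 19.3, 26 and 16.7 CPM with PBS and 6.09, 4.82 and 4.9 CPM with P-Mn@mHSA (log2FC −1.97 ± 0.17 SE, edgeR adjusted p = 5.36e-09). Both kinetochore genes were lower in every particle library, which the ranking rule had fixed. Both lie in the longest of the 5 length groups. The size of their falls depended on the fit, with the smallest log2 fold change at −1.33 for Cenpe and −1.06 for Knl1. Pola1, a subunit of DNA polymerase alpha, fell from 21.6 ± 3.64 to 12.7 ± 4.5 CPM, with overlapping groups.

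Genes of cholesterol synthesis and uptake fell in 17 of 26 tested cases and rose in 3, with a median log2 fold change of −0.31. Hmgcs1, an early enzyme of the mevalonate pathway, was 65, 70.3 and 69 CPM in the PBS libraries and 43.6, 47.5 and 41.2 CPM in the P-Mn@mHSA libraries (log2FC −0.63 ± 0.082 SE, edgeR adjusted p = 2.11e-06). Tm7sf2, a sterol reductase, was 14.3, 14.2 and 14.6 CPM with PBS and 7.31, 8.1 and 6.61 CPM with P-Mn@mHSA (log2FC −0.97 ± 0.15 SE, edgeR adjusted p = 1.86e-05). Idi1, an isomerase of the pathway, fell from a mean of 30.3 ± 1.89 to 16.2 ± 4.19 CPM (30.5% shared 50-base words). Scap, which escorts the sterol-regulated factor SREBP, rose from 118 ± 8.01 to 155 ± 9.07 CPM. Of 15 fatty acid synthesis genes 2 rose and 6 fell, and with the GC correction 0 of 15 were higher and 8 lower (median −0.21). Elovl6, an elongase, was 26.5, 31.7 and 30.4 CPM with PBS and 12.9, 14.7 and 14.8 CPM with P-Mn@mHSA and fell (log2FC −1.06 ± 0.12 SE, edgeR adjusted p = 1.75e-07), and Scd1, a desaturase, fell from 205 ± 18.7 to 111 ± 6.24 CPM. Abca1, the cholesterol exporter, was 17.7, 17.7 and 17.6 CPM with PBS and 6.09, 5.3 and 6.39 CPM with P-Mn@mHSA and fell (log2FC −1.57 ± 0.17 SE, edgeR adjusted p = 9.6e-08). Cpt1a, the gateway of mitochondrial fatty acid oxidation, rose from 24.3 ± 2.21 to 37.3 ± 1.72 CPM.

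Of 74 nuclear-encoded subunits of the respiratory chain 34 rose and 2 fell, with a median log2 fold change of 0.17. Atp5g1, a subunit of the ATP synthase, was 87.2, 75.5 and 83 CPM with PBS and 116, 127 and 112 CPM with P-Mn@mHSA (log2FC 0.53 ± 0.072 SE, edgeR adjusted p = 3.67e-06). Ndufv3, of complex I, was 38, 35.5 and 38.9 CPM with PBS and 55.2, 53.7 and 53.8 CPM with P-Mn@mHSA (log2FC 0.54 ± 0.086 SE, edgeR adjusted p = 2.63e-05). Both rose in every particle library. The 12 tested mitochondrially encoded genes had 2 higher and 5 lower, with a median of −0.23, which turned with composition, since after the GC correction 6 of 12 were higher and 1 lower (median 0.25). Mitochondrial genes took 1.773 to 2.199% of the counts with PBS and 1.31 to 1.793% with P-Mn@mHSA. mt-Co1, a subunit of complex IV, was 14337, 13133 and 11199.5 CPM with PBS and 7694, 10621 and 7355 CPM with P-Mn@mHSA and fell (log2FC −0.59 ± 0.1 SE, edgeR adjusted p = 8.36e-05), with 51.1% of its 50-base words found in other genes.

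Lysosome and autophagy genes had 21 of 63 tested members higher and 17 lower, beside 24.3% and 24.1% of all tested genes. Ctsd, cathepsin D, fell from a mean of 634 ± 26.5 to 478 ± 8.49 CPM (36.6% shared 50-base words), and Cst3, a protease inhibitor, rose from 494 ± 28.4 to 699 ± 64.8 CPM. Lamp2, a lysosome membrane protein, fell from 181 ± 5.45 to 136 ± 6.11 CPM, a call that was lost, with the sign turned, in the GC correction (0.08, adjusted p = 0.276). Plau, the protease urokinase, was 35.8, 41.2 and 40.2 CPM in the PBS libraries and 158, 135 and 168 CPM in the P-Mn@mHSA libraries (log2FC 1.98 ± 0.081 SE, edgeR adjusted p = 2.88e-14), and Mmp9, a gelatinase, was 33.2, 36.3 and 36.6 CPM in the PBS libraries and 4.94, 4.89 and 8.1 CPM in the P-Mn@mHSA libraries (log2FC −2.57 ± 0.15 SE, edgeR adjusted p = 1.38e-11). These proteases moved in opposite directions, each without overlap, which the ranking rule had fixed for Mmp9. Pmepa1, which restrains TGF-beta signalling, was 2.2, 3.01 and 2.16 CPM with PBS and 24.3, 17.7 and 21.3 CPM with P-Mn@mHSA and rose (log2FC 3.10 ± 0.18 SE, edgeR adjusted p = 6.23e-12), with Smad6, an inhibitory SMAD, from 4.91 ± 0.578 to 13 ± 2.78 CPM.

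Surface receptors of uptake and costimulation had 11 of 44 tested members higher and 15 lower, beside 24.3% and 24.1% of all tested genes. Pdcd1, the checkpoint receptor PD-1, was 12.2, 8.54 and 8.91 CPM in the PBS libraries and 98.4, 83.3 and 99.6 CPM in the P-Mn@mHSA libraries (log2FC 3.24 ± 0.11 SE, edgeR adjusted p = 1.42e-15). Cd274, its ligand PD-L1, was 21.2, 26 and 26.5 CPM in the PBS libraries and 9.34, 12.7 and 10.2 CPM in the P-Mn@mHSA libraries (log2FC −1.20 ± 0.14 SE, edgeR adjusted p = 2.97e-07). Receptor and ligand moved in opposite directions, each without overlap, which the ranking rule had fixed for Pdcd1. Msr1, a scavenger receptor, was 191, 190.0 and 192 CPM with PBS and 86.2, 95 and 82.7 CPM with P-Mn@mHSA and fell (log2FC −1.12 ± 0.073 SE, edgeR adjusted p = 5.76e-11), and Clec4e, a receptor for fungal and mycobacterial lipids, fell from a mean of 212 ± 4.37 to 88.1 ± 6.24 CPM. Fcgr1, the high-affinity Fc receptor, was 140.4, 139 and 150.04 CPM with PBS and 248, 233 and 235 CPM with P-Mn@mHSA and rose (log2FC 0.73 ± 0.062 SE, edgeR adjusted p = 3.45e-09). Lgals9, a galectin, rose from 152 ± 4.45 to 306 ± 12.9 CPM.

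The 16 tested identity markers of macrophages had 7 higher and 7 lower members. Adgre1, the gene of F4/80, was 101, 96.7 and 115 CPM in the PBS libraries and 24.7, 28.1 and 28.1 CPM in the P-Mn@mHSA libraries (log2FC −1.95 ± 0.09 SE, edgeR adjusted p = 2.48e-13). Lyz2, lysozyme, was 1846, 1851 and 1847 CPM with PBS and 562, 637 and 537 CPM with P-Mn@mHSA (log2FC −1.67 ± 0.079 SE, edgeR adjusted p = 3.32e-13), with 15.4% of its 50-base words shared. Mpeg1, a pore-forming protein, fell from 139 ± 6.84 to 57.7 ± 4.96 CPM, and Itgam, the integrin chain CD11b, from 161 ± 10.6 to 63.6 ± 3.58 CPM, though 72.4% of the 50-base words of Itgam occur in other genes. Trem2, a lipid-sensing receptor, was 39.2, 37.2 and 37.2 CPM with PBS and 95.5, 91.8 and 84.4 CPM with P-Mn@mHSA and rose (log2FC 1.26 ± 0.079 SE, edgeR adjusted p = 3.08e-11), and Csf1r, the receptor of Csf1, rose from 1645 ± 86.7 to 2120.4 ± 179 CPM. Adgre1, Lyz2, Mpeg1 and Itgam were lower and Trem2 and Csf1r higher in every particle library, which the ranking rule had fixed for Adgre1. For Csf1r 17.7% of its 50-base words are shared, and its log2 fold change went from 0.37 to 0.21 with the GC correction.

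Lineage transcription factors rose in 7 of 16 cases and fell in 2. Id2, which inhibits basic helix-loop-helix factors, was 11.7, 10.7 and 10.8 CPM with PBS and 35.7, 33.3 and 40.2 CPM with P-Mn@mHSA and rose (log2FC 1.72 ± 0.12 SE, edgeR adjusted p = 1.94e-10). Spi1, the myeloid master factor PU.1, rose from a mean of 309.9 ± 12.4 to 387 ± 12.5 CPM. Of 11 tested osteoclast genes 7 rose and 1 fell, which was Mmp9 (log2FC −2.57). Nfatc1, their central factor, was 400.0, 439.9 and 436 CPM with PBS and 809.8, 668 and 818 CPM with P-Mn@mHSA and rose (log2FC 0.85 ± 0.071 SE, edgeR adjusted p = 3.03e-09), Dcstamp, a fusion receptor, rose from 14.6 ± 1.27 to 24.7 ± 1.69 CPM, and Ocstamp from 0.545 ± 0.133 to 3.09 ± 0.655 CPM.

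**Figure D5:**
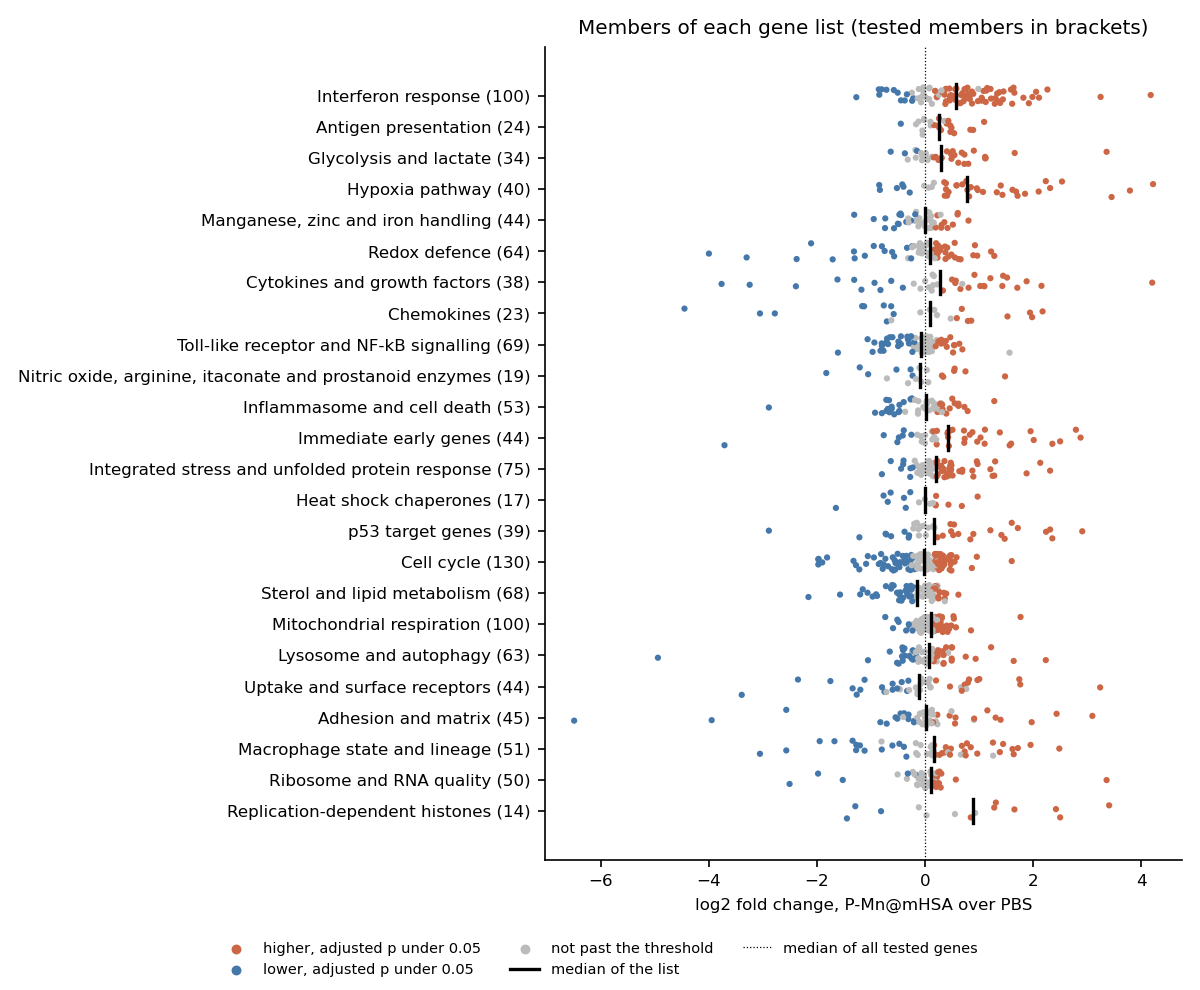
Log2 fold change (P-Mn@mHSA over PBS) of every tested member of 24 gene lists, one point per gene, with the median of each list as a bar. The hypoxia (0.78) and interferon (0.58) medians lie to the right, as does that of 14 histone genes (0.89), and the sterol and lipid list lies to the left (−0.14). The histone genes that rose at least 2-fold all had means below 2 CPM.

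Counting by abundance rather than fold, the largest gains in CPM were in Pkm, Ldha, Actb, Eno1, Sqstm1, P4hb, Eef2 and Aldoa. Pkm, pyruvate kinase, rose from a mean of 12002 ± 147 to 14872 ± 142 CPM, with 34.4% of its 50-base words shared. Actb, the beta actin often used as a reference, rose from 3162 ± 208 to 4699 ± 234 CPM. The largest losses were in mt-Co1, Spp1, Fth1, Akr1b3, Lyz2, Rn18s-rs5, Acod1 and Csf3. Of 35 ribosomal protein genes 12 rose and 1 fell, with a median log2 fold change of 0.11, and after the GC correction 5 of 35 were higher and 3 lower (median 0.02). Of 14 tested replication-dependent histone genes 7 rose and 3 fell. The 3 tested RNAs that stay in the nucleus all fell, among them Malat1, 388, 463 and 251 CPM in the PBS libraries and 61.7, 75.5 and 56.8 CPM in the P-Mn@mHSA libraries (log2FC −2.51 ± 0.15 SE, edgeR adjusted p = 1.04e-11), and Neat1, 485, 482 and 374 CPM with PBS and 155, 164 and 149 CPM with P-Mn@mHSA (log2FC −1.52 ± 0.081 SE, edgeR adjusted p = 2.43e-12). Both were lower in each particle library, which the ranking rule had fixed for Malat1.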

How the data were processed

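The deposited table holds raw read counts and FPKM values per gene and library, per the file headers. Each deposited FPKM value equalled count over gene length and a constant per library (largest relative deviation 1.1e-13). The submitters' processing notes name cutadapt 1.9, FastQC and build GRCm38. The aligner, the counter, strand and multiple-match handling are nowhere stated in the sources used here, and the table's coordinates were not used. Counts were filtered with filterByExpr (99.873 to 99.912% of counts kept), scaled by TMM and fitted with edgeR 4.0.16 in R 4.3.3 as 1 quasi-likelihood model of 9 libraries, two-sided, with Benjamini-Hochberg adjustment over 12454 genes and a threshold of 0.05. The count test was run on simulated data with far fewer changed genes and no trend with GC content or length. That check does not cover these features of the data.

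Named genes were the 15 largest rises and falls by fold among called, non-overlapping genes with at least 5 CPM in the lower group, the 8 largest gains and losses in CPM, 8 index genes, and members of the lists: up to 4 called members per role and direction with at least 2 CPM in the higher group, or any member of a role with 20 or fewer. Predicted and clone-named genes were left out, 2 among the falls. Results for 4 genes that the rule names are not reported here. Atf4, Ddit3, Hspa5 and Trp53 were named after their values were seen. The members and lists were chosen with earlier results of these data known. Alternatives were other scalings, filters and tests (DESeq2 1.42.0, limma 3.58.1 on log2 FPKM or TPM plus a pseudocount of 1 or 0.1), gene-length offsets, a replicate block and leaving out each library. GC corrections in 20 bins were added after seeing the data and covered 12309 genes (98.84%).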

Additional observations from a re-analysis of the deposited data

How the results depend on the processing

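The number of changed genes was 5178 to 6125 under the alternatives that kept every library, against 6035, and 5243 to 6074 when 1 library was left out. Leaving out 1 library gave 369 to 398 genes higher and 618 to 783 lower by at least 2-fold, against 381 and 706. With limma on log2(TPM + 1) 1995 genes rose, and 617 changed at least 2-fold, 195 higher and 422 lower. With limma on log2(FPKM + 1) 331 changed at least 2-fold, 169 higher and 162 lower, and with a pseudocount of 0.1 the lower count was 449. Requiring at least 50 counts in every library of a group gave 619, 221 higher and 398 lower. A pseudocount shrinks the fold of low genes, and the stricter filter tests fewer genes. The size of the change thus varied for named genes with few counts in a group. Over the fits the log2 fold change was −5.37 to −1.61 for Ccr7 and −4.12 to −1.46 for Batf. It was 1.67 to 3.91 for Mgarp and 0.68 to 2.67 for Ocstamp.

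Replicate numbers did not pair the libraries, since deviations of equally numbered libraries correlated at −0.012, −0.027 and 0.061. With the replicate block 5846 genes changed, and 5811 calls were kept. Lamp2 went from −0.42 to 0.08 with the GC correction and with the block and GC correction together, and to 0.12 with GC and length, none of them called. Eef2 lost its call under the GC correction (0.02, adjusted p = 0.706). Of the values of named genes under the alternatives, 4390 kept their side of the threshold and, if called, their direction, 22 lost the call, 20 gained one and 3 of a called gene turned. Among genes not called, the sign of 3 values turned when 1 library was left out, for Cyba, Ifnar1 and Il6. Depth limits genes below the count filter, which were not tested.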

Other observations

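Gene classes by biotype and transcription factor family, which partly overlap the lists, also differed in direction. Of 682 tested long non-coding RNAs 42 were higher and 198 lower with P-Mn@mHSA, with a median log2 fold change of −0.38, against 2871 higher and 2719 lower of 10859 protein-coding genes (median 0.01). Of 670 processed pseudogenes 90 were higher and 35 lower. Among transcription factor families, the zinc finger family zf-C2H2 had 58 of 363 tested members higher and 116 lower (median −0.25), the basic leucine zipper family 20 of 43 higher and 6 lower (median 0.17), and the interferon regulatory factors 7 of 8 higher and none lower (median 0.49). Direction moved with GC content across all genes, and the part of composition in these counts was not tested.

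Chromosome 7 had 292 of 952 tested genes higher and 158 lower, and chromosome 13 had 77 of 454 higher and 131 lower. Among all tested genes 24.3% were higher and 24.1% lower. These chromosomes are examples, and the part of composition in their counts was not tested. All 4 called genes of the Y chromosome, of 6 tested, were lower.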
